A study of Mus musculus with 8 samples.

Results

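The immediate early transcription factors examined here are Fos, Fosb, Fosl1, Jun, Junb, Jund, Egr1, Egr2, Ier2 and Ier3. They were taken by symbol, after a final dot and digits was removed from each name, from the authors' deposited table of the comparison. All 10 genes were found, in 11 rows of 36743 and among 16573 gene symbols. The table comes from poly(A) RNA of cells or tissue from mouse tibialis anterior and extensor digitorum longus. The muscles were taken 3 days after injury by notexin at 2 mg/mL. Notexin, a phospholipase from snake venom, kills muscle fibres. There were 8 libraries, 4 labelled Ctrl and 4 labelled Psat1iKO, and the injury and the day were the same in both. Psat1 encodes phosphoserine aminotransferase of the serine synthesis pathway. The labels give no allele, Cre driver, promoter, strain or age, and do not say whether a library was 1 animal or a pool. They name flow-sorted muscle stem cells, whereas the series' design text describes extraction of RNA from the muscles. No source ties the 4 libraries of a group to separate mice, and the p-values then cover only library-to-library spread, which may be technical.

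Immediate early genes are switched on within minutes of a stimulus, without new protein synthesis. Growth factors, injury and handling activate MAP kinases, which act on serum response factor, its ternary complex partners and CREB already bound at these genes. FOS and JUN proteins pair through leucine zippers as the AP-1 factor, EGR proteins bind GC-rich sites through zinc fingers, and IER2 and IER3 are short-lived response proteins without those domains. In muscle stem cells Fos and Jun are known as genes of early activation after injury, and also as genes that rise while tissue is dissociated to isolate cells.

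The promoters of Fos, Fosb, Jun and Junb are shown because Fos, Fosb and Jun varied widely between libraries for their abundance and Junb less so, as given with the spread. Each is the 250 bases before the RefSeq start in GRCm38.p6, 5′ to 3′ on the gene's strand, and capitals mark TGACG, the core of the cyclic AMP response element, or TGACNTCA, a form of the whole element.
Fos (chr12:85473640-85473889, plus strand): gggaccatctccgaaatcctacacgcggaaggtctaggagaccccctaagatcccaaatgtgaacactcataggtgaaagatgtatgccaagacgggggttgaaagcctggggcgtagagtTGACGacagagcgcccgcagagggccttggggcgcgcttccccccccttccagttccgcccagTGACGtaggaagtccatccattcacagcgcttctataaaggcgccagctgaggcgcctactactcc
Fosb (chr7:19310046-19310295, minus strand): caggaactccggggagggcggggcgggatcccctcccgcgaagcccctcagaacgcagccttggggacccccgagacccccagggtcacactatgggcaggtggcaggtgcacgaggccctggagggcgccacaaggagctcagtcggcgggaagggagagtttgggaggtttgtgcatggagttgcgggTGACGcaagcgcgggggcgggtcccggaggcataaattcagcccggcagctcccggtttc
Jun (chr4:95052223-95052472, minus strand): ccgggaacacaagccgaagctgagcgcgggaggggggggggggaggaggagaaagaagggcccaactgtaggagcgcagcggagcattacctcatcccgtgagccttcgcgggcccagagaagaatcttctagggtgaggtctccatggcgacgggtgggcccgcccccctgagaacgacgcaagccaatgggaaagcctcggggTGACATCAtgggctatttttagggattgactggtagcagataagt
Junb (chr8:84978749-84978998, minus strand): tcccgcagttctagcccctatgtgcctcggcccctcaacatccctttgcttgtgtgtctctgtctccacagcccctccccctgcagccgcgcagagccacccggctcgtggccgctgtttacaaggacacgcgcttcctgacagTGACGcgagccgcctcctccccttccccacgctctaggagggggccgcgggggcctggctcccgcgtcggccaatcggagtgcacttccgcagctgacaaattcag
RefSeq promoter entries were matched for 7 of the 10 genes. Those without an entry were Fosl1, Egr1 and Ier2. The 7 genes with an entry have 11 windows, of which 5 belong to Egr2 and partly overlap. A count of genes is thus not of the same unit as a share of windows. The Jund window, chr8:70697489-70697738, ends before the start of that gene in GENCODE M21, 70698949. On either strand, TGACG was found in 6 of the 11 windows, for the genes Fos, Fosb, Junb and Egr2, and in 17.8% of 32851 promoter windows of the same length. TGACNTCA, which contains TGACG where N is G, was found for Jun alone among the 7 and in 7.49% of all windows. A CArG box, the site of serum response factor, was found for Egr2 alone, in 1.47% of all windows. For Egr2 it read CCATATATGG at chr10:67537797-67537806 on the plus strand, in 3 overlapping windows, and a further Egr2 window held another match. TGANTCA, the 7-base form of the AP-1 site, was found for 0 of the 7 genes and in 6.75% of all windows. TATAAA was found for Fos alone and in 12.4% of all windows. GCGNGGGCG, the EGR site, was found for Fosb alone and in 4.7%. A match is a description of these letters only. Whether such matches bear on the spread between libraries was not tested. Bases further upstream were not searched, so a site outside the 250 bases would be missed.

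Values per library were not used here. The authors' deposited table gives 1 mean of normalized counts over all 8 libraries per row, a log2 fold change, its standard error (SE) and a DESeq2 p. Changes are given as Psat1iKO minus Ctrl. A fitted mean is a group's level worked out from that pooled mean and that fold change, for groups of equal size. Depth per library is unknown, and all row means sum to 37005033. The targeted gene Psat1 was lower in Psat1iKO. The authors' deposited table gives its row of highest mean a log2 change of -0.49 ± 0.0675, with a DESeq2 adjusted p of 1.22e-09. The fitted means of that row were 20204 in Ctrl and 14362 in Psat1iKO, so the loss of this RNA was partial. Its other row, on a mean count of 76.5, had 0.68 ± 0.514 in the authors' deposited table and was not called. Of the markers of muscle stem cells and myoblasts, 15 of 15 had rows, with a median mean count of 4626. The median was 80.4 over 11 of 14 macrophage markers, 27.1 over 8 of 8 endothelial markers and 412 over 10 of 10 pericyte and smooth muscle markers. It was 909 over 9 of 10 adult myofibre markers, which ran from 6.02 for Myh2 to 17412 for Ttn. Muscle stem cell and myoblast markers thus had the highest median of these lists. Whether the RNA came from sorted cells or from the muscles was not tested.

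All but Egr2 stood above the median abundance of all genes, and no difference between Ctrl and Psat1iKO was called for any of them. Of the 11 rows in the authors' deposited table, 0 had a DESeq2 adjusted p under 0.05, against 0.656% of all 36743 rows. On the row of highest mean of each gene (its leading row), with Benjamini-Hochberg adjustment of p across all genes' leading rows, 0 of 10 were called, against 0.223% of 16573. At an unadjusted DESeq2 p under 0.05 the count was also 0 of 10, against 4.09% of leading rows. With 10 genes, a count of 0 is near the background in each case. The log2 change was above 0 for 6 genes and below 0 for 4, with a median of 0.01, beside -0.01 over all leading rows. The whole 95% interval of the change lay within 2-fold for all 10 genes and within 1.5-fold for 8, those other than Egr1 and Egr2. It lay within 2-fold also for 92.6% of all leading rows of mean 100 or more. The fitted means of the 10 genes summed to 66347 in Ctrl and 66636 in Psat1iKO.

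**Figure D1:**
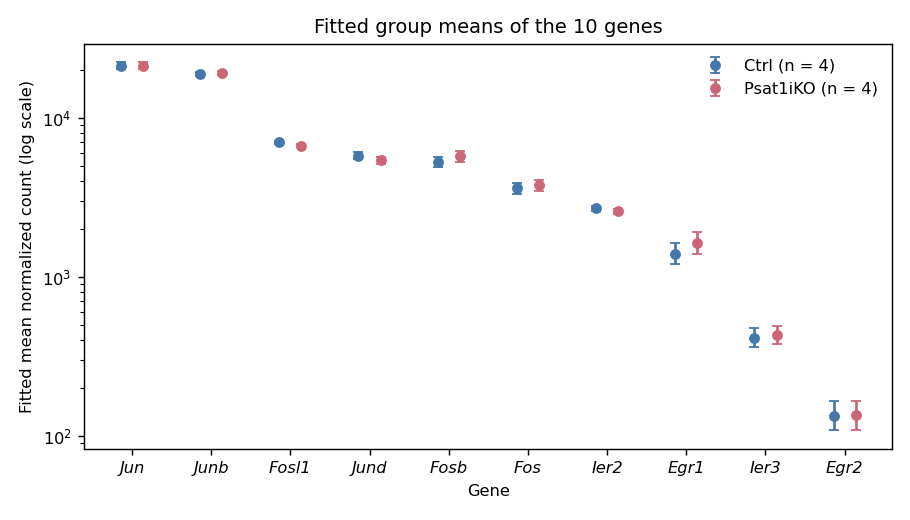
Fitted mean normalized count of each gene on a log scale, in Ctrl (blue, n = 4) and Psat1iKO (red, n = 4), with bars of 1 SE derived from the deposited SE of the log2 change. The group means of each gene lie side by side, from about 21200 for Jun down to about 134 for Egr2 in Ctrl.

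Among the JUN proteins, which can pair with themselves or with FOS proteins, Jun and Junb were the most abundant of the 10 genes. Jun, the founding AP-1 subunit, lies on chromosome 4 from 95049034 to 95052222 (GRCm38). It had fitted means of 21200 in Ctrl and 21170 in Psat1iKO. Its mean normalized count of 21185 stood at percentile 98.7 of leading rows. The fitted means were nearly equal, and the authors' deposited table gives -0.0021 ± 0.0966 as the log2 change, with a 95% interval from 0.876-fold to 1.14-fold.

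Junb, an AP-1 subunit that can restrain Jun, had fitted means of 18880 in Ctrl and 19185 in Psat1iKO. Its log2 change was 0.02 ± 0.0598 in the authors' deposited table, and the 95% interval ran from 0.937-fold to 1.10-fold. The difference was smaller than its error.

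Jund, the JUN gene that is expressed most evenly across tissues and responds least to stimuli, had fitted means of 5744 in Ctrl and 5384 in Psat1iKO. Its log2 change was -0.09 ± 0.105 in the authors' deposited table, with a 95% interval from 0.813-fold to 1.08-fold. Jund is the 1 gene of the 10 with more than 1 row. Its 2 rows, Jund and Jund.1, were identical in every column of the authors' deposited table. RefSeq lists 2 curated transcripts of Jund. Whether each row holds all reads of the gene or a share of them is not given in the sources used here, so its level is either 5564 or, if the rows are to be added, 11128. The change is the same in both cases.

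The FOS proteins bind DNA only together with a partner such as JUN. Fos lies on chromosome 12 from 85473890 to 85477273. It had fitted means of 3605 in Ctrl and 3753 in Psat1iKO. The log2 change of Fos in the authors' deposited table was 0.06 ± 0.166, with a 95% interval from 0.831-fold to 1.30-fold.

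Fosb had fitted means of 5258 in Ctrl and 5723 in Psat1iKO. Its log2 change was 0.12 ± 0.158 in the authors' deposited table, with a 95% interval from 0.878-fold to 1.35-fold. Fosb was thus a little more abundant in counts than Fos, and the difference between genotypes was within its error for both.

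Fosl1, which encodes FRA1, an AP-1 subunit that accumulates later than FOS and is itself an AP-1 target, came closest to a difference. Its fitted means were 7012 in Ctrl and 6652 in Psat1iKO. The log2 change was -0.08 ± 0.044 in the authors' deposited table, with an unadjusted DESeq2 p of 0.0834 and an adjusted p of 0.965. Its 95% interval ran from 0.894-fold to 1.01-fold. Fosl1 lies on chromosome 19 from 5447547 to 5455946, 10.45 Mb from Psat1 on the same chromosome.

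The EGR genes had the least precise values. Egr1, a zinc finger factor induced through serum response factor, had fitted means of 1399 in Ctrl and 1626 in Psat1iKO. Its log2 change of 0.22 ± 0.32 in the authors' deposited table was the largest of the 10 and still under 1 SE. The 95% interval ran from 0.752-fold to 1.80-fold.

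Egr2, known from mouse hindbrain and Schwann cell development as Krox20, was the least abundant, with fitted means of 134 in Ctrl and 135 in Psat1iKO. The log2 change of Egr2 was 0.0042 ± 0.437 in the authors' deposited table. Its interval from 0.554-fold to 1.82-fold was the widest of the 10.

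Ier2, a nuclear regulator of transcription, had fitted means of 2699 in Ctrl and 2576 in Psat1iKO. Its log2 change was -0.07 ± 0.0703 in the authors' deposited table, with a 95% interval from 0.868-fold to 1.05-fold. Ier3, which encodes a protein that modulates ERK signalling and cell survival, had fitted means of 415 in Ctrl and 432 in Psat1iKO. Its log2 change was 0.06 ± 0.269 in the authors' deposited table, with a 95% interval from 0.721-fold to 1.50-fold. Both were within 1 SE of no change.

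How small a change could have been called differed widely among the genes. The smallest absolute Wald statistic (change divided by SE) of a called row in the authors' deposited table was 3.59. At that value the smallest callable change would have been 1.12-fold for Fosl1, 1.16-fold for Junb, 1.19-fold for Ier2, 1.27-fold for Jun and 1.30-fold for Jund. It would have been 1.48-fold for Fosb and 1.51-fold for Fos. For Ier3 it was 1.96-fold, for Egr1 2.22-fold and for Egr2 2.97-fold. Estimated changes below these sizes would not have been called. These are limits on the estimated change and not on the true one.

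**Figure D2:**
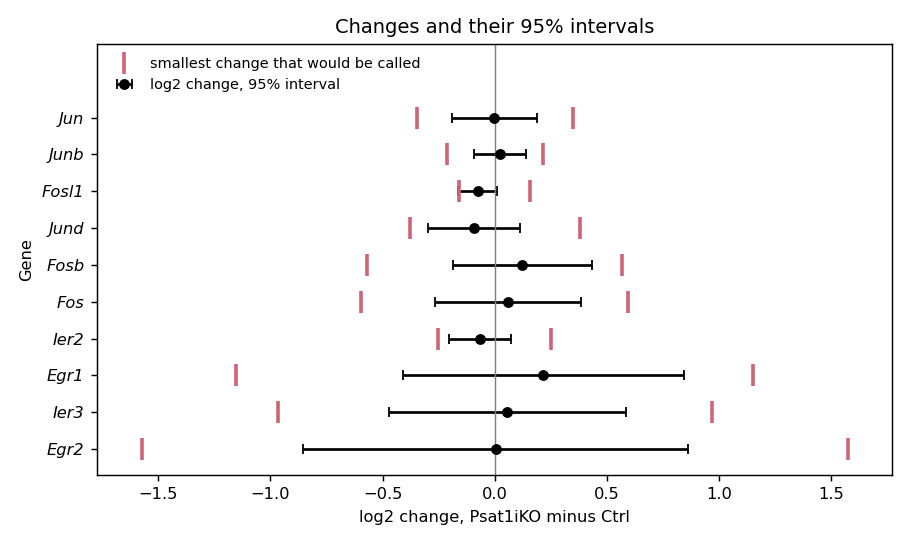
The log2 change of each gene (x axis, Psat1iKO minus Ctrl) with its 95% interval, genes ordered by abundance, and red ticks at the smallest change that would have been called. Every interval but that of Fosl1 lies inside the red ticks, and every interval contains 0, from Fosl1 as narrowest to Egr2 as widest.

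Levels between genes were compared per kilobase of the longest protein-coding transcript in GENCODE M21, since the authors' annotation is not given in the sources used here. On this scale the mean normalized count per kilobase over the 8 libraries was 10521 for Junb, 6643 for Jun, 3665 for Fosl1 and 3336 for Jund. It was 1745 for Fos, 1733 for Ier2 and 1452 for Fosb, then 374 for Ier3, 337 for Egr1 and 45.4 for Egr2. JUN family transcripts thus exceeded those of Fos and Fosb per length. Neighbours in this order differed beyond the 95% interval of their difference except Fos and Ier2, and Ier3 and Egr1. That interval treats the genes as independent, although they were measured in the same libraries, and allows no error in transcript length. With both Jund rows added, Jund would stand at 6672, beside Jun.

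The genes differed in how much the libraries spread, and the spread was wide for Fos, Fosb, Jun and Egr1. The deposited SE reflects the variation between libraries within a group. It was set against leading rows whose mean lay within 0.5 on the log2 scale of the gene's own. The SE of Egr1 was 3.67 times the median of such rows and stood at percentile 98.2 of them. Fosb was at percentile 97.3 with 2.70 times the median, Fos at percentile 96.0 with 2.57 times, and Jun at percentile 92.2 with 1.90 times. Jund was at percentile 87.1, Ier3 at 79.9, Egr2 at 73.9 and Junb at 63.1. Ier2 at percentile 47.6 and Fosl1 at percentile 33.7 spread no more than a typical gene of their abundance. The SE lay above the 90th percentile for 4 of 10 genes, against 9.84% of all leading rows. The same 4 genes lay above it with windows of 0.25 and 1.

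Expressed as a coefficient of variation between libraries beyond counting error, worked out from the SE, the spread was 16.2% for Fos, 15.4% for Fosb and 31.3% for Egr1. It was 9.44% for Jun, 5.82% for Junb, 10.2% for Jund, 6.61% for Ier2 and 4.14% for Fosl1. Egr2 stood at 42.0% and Ier3 at 26.0%, on lower counts. These values are approximate, because DESeq2 draws the variation of each row towards that of rows of like mean. Which libraries were high or low cannot be read from a pooled mean.

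**Figure D3:**
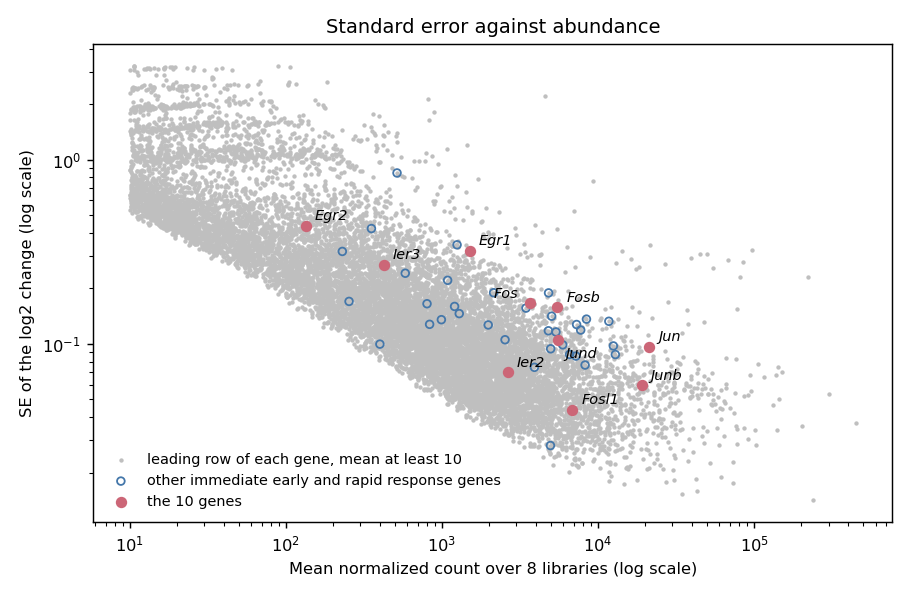
SE of the log2 change against the mean normalized count over 8 libraries, both on log scales, for the leading row of each gene with a mean of at least 10 (grey), other immediate early and rapid response genes (open blue circles) and the 10 genes (red). Egr1, Fos, Fosb and Jun lie near the upper edge of the cloud for their abundance, and Fosl1 lies in its lower part.

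Other genes of the same response were also abundant and not called. Of the other immediate early and rapid response genes, 34 of 36 listed symbols had rows, with a median mean count of 3685. None of their 59 rows was called by DESeq2 (0 higher, 0 lower), and at an unadjusted p under 0.05 the leading rows counted 0. Of these genes, 24 lay below 0 and 10 above, with a median log2 change of -0.04. Over all leading rows 8597 of 16573 lay below 0, and at an unadjusted DESeq2 p under 0.05, 308 were higher and 370 lower. The orphan nuclear receptor gene Nr4a3 had 0.57 ± 0.317 in the authors' deposited table, and the antiproliferative gene Btg2 had 0.18 ± 0.0996. In the same deposited table of the authors, Klf6, a zinc finger factor, had -0.15 ± 0.0974, and Id1, an inhibitor of basic helix-loop-helix factors, had 0.19 ± 0.118. The SE was above the 90th percentile of rows of like mean for 15 of these 34 genes.

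Wide spread was not confined to immediate early genes. It was above the same percentile for 5 of 14 heat shock genes, 7 of 20 AP-1 target genes, 3 of 15 muscle stem cell and myoblast markers and 5 of 9 adult myofibre markers. It was so for 5 of 11 macrophage markers and for 3 of 10 pericyte and smooth muscle markers. For the serum response and ternary complex factors the count was 0 of 9, and for regulators of JUN protein turnover 0 of 7. Whether the cell types or the handling of the libraries took part in the spread of Fos, Fosb, Jun and Egr1 was not tested.

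The partners of these factors were not called either. Of 13 related leucine zipper genes 12 had rows, with 0 of 31 rows called by DESeq2 and a median log2 change of 0.01, and 1 leading row higher and 1 lower at an unadjusted p under 0.05. Fosl2, which encodes FRA2, the remaining FOS family protein, had fitted means of 7096 in Ctrl and 6654 in Psat1iKO. The log2 change of Fosl2 in the authors' deposited table was -0.09 ± 0.0364, with an unadjusted DESeq2 p of 0.0107 and an adjusted p of 0.429. Its SE was at percentile 20.6 for its abundance, so both FRA genes were among the tightly measured ones. Batf3 had 1.98 ± 0.997 in the authors' deposited table, on a mean count of 3.23. The NAB co-repressors of EGR proteins, Nab1 and Nab2, had changes of -0.12 ± 0.129 and -0.27 ± 0.186 by the authors' deposited table. Egr3 had -0.22 ± 0.337 and Egr4 0.44 ± 1.06 in the authors' deposited table, the latter on a mean count of 6.11. The 4 EGR and NAB genes had 0 of 8 rows called and 0 at an unadjusted DESeq2 p under 0.05.

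Upstream of the 10 genes, the serum response and ternary complex factors had 0 of 32 rows called over 9 genes, 0 at an unadjusted DESeq2 p under 0.05, and a median log2 change of -0.02. The MAP kinase cascade had 1 of 73 rows called over 23 genes, against 0.656% of all rows, with a median of -0.02. At an unadjusted DESeq2 p under 0.05, 2 of its leading rows were higher, Mapk9 and Egfr. Over all 16573 leading rows, 308 were higher and 370 lower at that p. The called row was Map2k4.4, of a kinase that activates JNK and p38, which the authors' deposited table gives as -8.27 ± 2.14 (DESeq2 adjusted p 0.0225). That row holds 1.08% of the gene's total, and its size is loosely set because the fitted mean in Psat1iKO was 0.173. Mapk9, which encodes the JUN kinase JNK2, had 0.53 ± 0.187 in the authors' deposited table, with a DESeq2 adjusted p of 0.268. The feedback inhibitors of MAP kinases, themselves induced by the pathway, had 0 of 26 rows called over 15 genes and a median of -0.06, with 1 leading row lower at an unadjusted DESeq2 p under 0.05. That was Dusp5, an ERK phosphatase, which the authors' deposited table gives as -0.24 ± 0.0838 (DESeq2 adjusted p 0.27). Regulators of JUN protein turnover had 0 of 22 rows called over 7 genes, 0 at an unadjusted DESeq2 p under 0.05, and a median of 0.01.

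Downstream, AP-1 target genes had 1 of 46 rows called over 20 of 21 listed genes, against 0.656% of all rows. Their median log2 change was -0.06, with 1 leading row higher at an unadjusted DESeq2 p under 0.05, Areg. The called row was Cd44.3, of the hyaluronan receptor, which the authors' deposited table gives as -8.31 ± 1.98 (DESeq2 adjusted p 0.00758). It holds 0.147% of the gene's total, and the leading row of Cd44 had -0.09 ± 0.0553 in the authors' deposited table. The EGF receptor ligand gene Areg had 0.29 ± 0.142 and the cytokine gene Il6 had 1.01 ± 0.579 in the authors' deposited table, and neither was called. Ptgs2, the inducible cyclooxygenase of prostaglandin synthesis, had -1.88 ± 0.974 in the authors' deposited table and was not called either.

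Heat shock genes that are known to rise when tissue is dissociated had 0 of 20 rows called by DESeq2 over 14 genes, 1 leading row higher at an unadjusted p under 0.05 and a median of -0.01. Hspa1a, the inducible HSP70, is given in the authors' deposited table as 0.52 ± 0.228 (DESeq2 adjusted p 0.596) and Hspa1b as 0.22 ± 0.304. These are near-identical copies, so the division of reads between them is uncertain. Their SEs stood at percentiles 98.7 and 99.2 for their abundance, above those of Fos and Fosb.

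**Figure D4:**
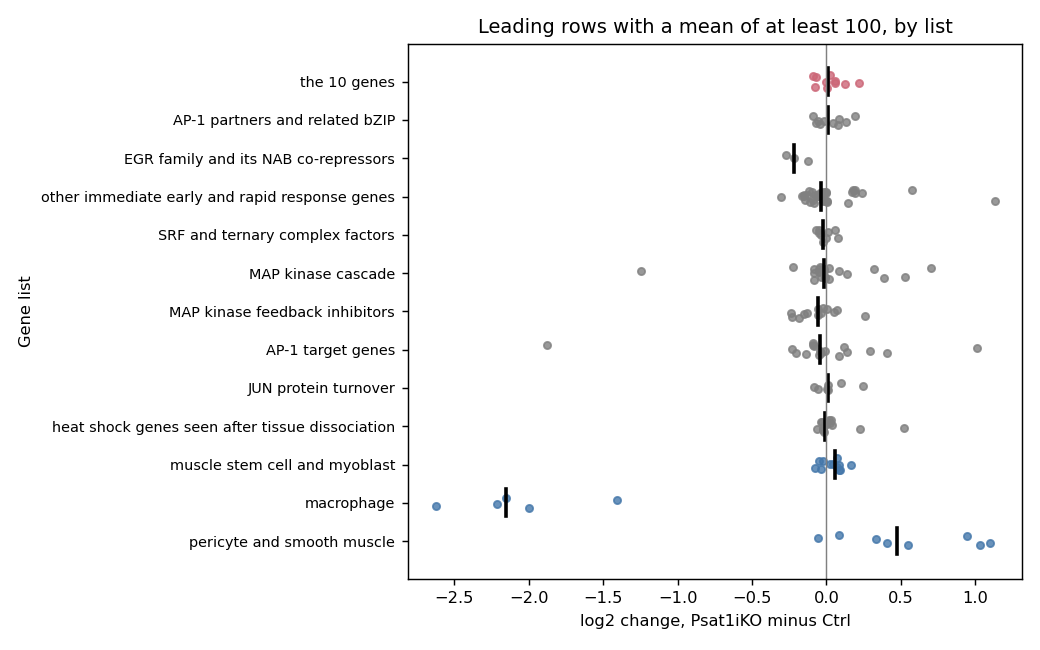
The log2 change (x axis, Psat1iKO minus Ctrl) of leading rows whose mean is at least 100, by list, with a black bar at each median. The 10 genes (red) lie between -0.09 and 0.22, while macrophage markers (blue) lie below 0 and most pericyte and smooth muscle markers (blue) above 0.

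In the same comparison macrophage markers lay below 0, and most pericyte and smooth muscle markers lay above 0. Macrophage markers lay below 0 for 11 of 11 measured genes, with a median log2 change of -2.00. By DESeq2, 0 of their rows were called, against 0.656% of all rows. At an unadjusted DESeq2 p under 0.05, 4 of their leading rows were lower, against 370 of all 16573. The fitted means of the macrophage markers summed to 3673 in Ctrl and 824 in Psat1iKO, and Csf1r, Fcgr1 and C1qa had no row. Pericyte and smooth muscle markers lay above 0 for 9 of 10, with a median of 0.75 and 1 row called, Myh11.2. Their fitted means summed to 11247 in Ctrl and 13638 in Psat1iKO, and Notch3 of that list is also in the muscle stem cell list. At an unadjusted DESeq2 p under 0.05, 2 of their leading rows were higher, against 308 of all 16573. The authors' deposited table gives the called row Myh11.2 as 4.80 ± 1.33 (DESeq2 adjusted p 0.0466). That row holds 19.2% of the gene's total, and its fitted mean in Ctrl was 3.64. The leading row of Myh11 had 1.10 ± 0.692 in the authors' deposited table and was not called. Endothelial markers lay below 0 for 7 of 8, with a median of -0.80, 0 rows called and 0 at an unadjusted DESeq2 p under 0.05. Their median mean count was 27.1, and their fitted means summed to 340 in Ctrl and 290 in Psat1iKO. Egfl7, the 1 endothelial marker with a mean of at least 100, had 0.06 ± 0.22 in the authors' deposited table. The median was 0.04 over 9 adult myofibre markers and 0.13 over 8 of fibro-adipogenic progenitors. It was 0.02 over 3 of neutrophils, which ran from -3.33 to 0.68, and 0.22 over 2 of T and B cells. Each of these lists had 0 rows called and 0 at an unadjusted DESeq2 p under 0.05. Muscle stem cell and myoblast markers lay above 0 for 11 of 15, with a median of 0.07 and 1 row called. That was Myod1, a transcription factor of myoblast commitment, which the authors' deposited table gives as 0.16 ± 0.0386 (DESeq2 adjusted p 0.0058). Immediate early genes are known to be expressed in many cell types, and the part of these cell types in the levels of the 10 genes was not tested. In RNA from many cells, fewer cells of a type and less RNA per cell cannot be told apart.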

How the data were processed

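Poly(A) RNA libraries (8, from 250 ng of RNA) were sequenced. The authors used HISAT2 2.2.1 and mm10, and DESeq2 with the version given as 4.2.0, per the submitters' processing notes. How reads were counted, on which annotation, with which filters and strand setting, is not given in the sources used here. The authors' deposited table gives a mean of normalized counts over all libraries (a signal), a log2 fold change with its SE, a Wald score, and p-values with Benjamini-Hochberg adjusted p-values. Per the file headers the deposited log2 fold changes run as Ctrl over Psat1iKO, and their sign was changed. Of 27 gene symbols in the deposited enrichment for genes higher in the knockout, 26 then had a called row at least 2-fold higher and 0 lower. Of 48 in that for genes lower in the knockout, 46 had such a row lower and 1 higher.

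Fitted group means, 95% intervals (change ± normal quantile × SE), the implied coefficient of variation and percentiles of SE were computed with Python 3.11.15 and pandas 2.3.3. The formulas for fitted means, the coefficient of variation and the Benjamini-Hochberg adjustment were run on simulated data. There the SE was set from the known variation, so its estimation by DESeq2 was not tested. The 95% intervals and percentiles of SE were not tested either. Identical rows of a gene were counted once in sums. The members and lists were chosen with earlier results of these data known. Genes of a list given with a change are its called rows and some of the 4 leading rows of smallest p. The exceptions are the leading row of Myh11, Egfl7, and the rapid response genes singled out after their values were seen. Egfl7 was named for being the only endothelial marker with a mean of at least 100.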

Additional observations from a re-analysis of the deposited data

How the results depend on the processing

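For the 10 genes, the count of called rows was 0 also with a mean limit of 100 or 10, at an adjusted p under 0.1, with a 2-fold limit, at an unadjusted p under 0.05 and with identical rows counted once, the last chosen after seeing the data. Their median log2 change ranged from 0.0042 over every row to 0.0237 after centring on leading rows of mean 100 or more (median -0.01). Centring turned the sign of Jun, from -0.0021 to 0.0080, both far inside its SE. No other of the 10 changed sign with centring, gene totals or adjustment over leading rows. Over the 9 lists around these genes, the 2 called rows fell to 0 with a mean limit of 100, which both rows miss, and 16 rows passed an unadjusted p under 0.05. No paired analysis was possible because values per library were not used here. Leaving out replicates was not run for the same reason. Egr1, Egr2 and Ier3 had the widest intervals.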

Other observations

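Jund is among 23 genes with rows that are identical in every column to another row of the same gene, 58 rows in all, while 8131 genes have more than 1 row. At a mean of at least 100 these are 14 genes, of which the immediate early gene Myc, with 4 rows that are all of this kind, Cebpb and Vegfa were noticed after their values were seen. Adding such rows gives a level above that of a single row.

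Among the rapid response genes the spread ran from very wide to very narrow, as in these examples singled out after their values were seen. Ccn2, a matricellular protein gene, had a log2 change of 1.13 ± 0.845 in the authors' deposited table, at percentile 98.7 of SE for its abundance. Nfkbiz, a regulator of NF-kB, had 0.17 ± 0.344 in the authors' deposited table, at percentile 98.2. Zfp36l1, an RNA-binding protein that speeds mRNA decay, lay at the opposite end, with 0.00 ± 0.0281 in the authors' deposited table and percentile 2.80.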
